A study of Mus musculus with 3 samples.

Results

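Myeloid identity genes served here as a contrast for the Runx3 landscape of natural killer cells (NKC). The 10 genes were Csf1r, Csf3r, Spi1, Cebpa, Cebpb, Lyz2, Mpo, Elane, Cd14 and Emr1, out of 22350 protein-coding genes annotated on 20 chromosomes of the mouse genome assembly mm9. They were chosen by symbol for their known role in monocytes, macrophages and neutrophils. No measured value entered the rule, but earlier results of these data were known when they were chosen. Each gene body was extended by 20 kb on either side, and every Runx3 or H3K4me1 region sharing at least 1 bp with this window was listed. Of the 10 symbols, 9 were found directly, and 1, Spi1, was found under its older name Sfpi1.

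NKC were taken from the spleen of ICR mice and used at rest, without culture or stimulation, for ChIP-seq in 3 groups of 1 sample each. Chromatin fixed with 1% formaldehyde was pulled down in separate reactions by a polyclonal anti-Runx3 antibody, by a monoclonal antibody to the histone mark H3K4me1 (monomethylation of lysine 4 of histone H3), or by serum of non-immune rabbits (NIS), the control. The cells were enriched by negative selection and then sorted, on NKp46 per the labels and on DX5 per the methods of the study. All 3 groups share the same strain and cell type, and none carries a mutation or treatment. The deposited data are coordinates alone, 15524 Runx3-bound regions (called peaks here) and 49902 H3K4me1-marked regions, without scores, read counts or replicate lists. Presence and position could therefore be described, but signal strength and replicate spread could not, and no test between conditions was possible. At the marker genes of NKC fixed for this comparison (Ncr1, Klrb1c, Tbx21, Eomes, Prf1, Gzma, Gzmb, Klrk1, Klrd1 and Il2rb), 10 of 10 windows held both a Runx3 peak and an H3K4me1 region. Over all genes, 51.0% had a Runx3 peak and 74.0% an H3K4me1 region. The study had already reported Runx3 binding at Ncr1 and Klr genes in these cells, so this count was partly known in advance.

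Myeloid cells are specified by transcription factors that act in combination. PU.1, encoded by Spi1, is an ETS family factor needed for macrophage and B cell development, and the C/EBP factors encoded by Cebpa and Cebpb drive granulocyte and macrophage genes. These factors, together with Runx1, are known to activate the growth factor receptors Csf1r and Csf3r and the granule genes Mpo and Elane in myeloid progenitors. RUNX proteins share a DNA-binding domain, so Runx1 and Runx3 recognise the same short sequence. H3K4me1 marks enhancers and the flanks of active promoters, including enhancers that are primed without being in use. NKC are lymphocytes that do not need these genes for their cytotoxic function.

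The Runx3-bound stretches that follow are shown because they come from Runx3 peaks beside a myeloid gene, with or without the sequence Runx proteins recognise. The RUNX consensus was searched on both strands as TGNGGN with C or T at each N, and matches are in capitals, where a match on the opposite strand reads as its reverse complement. Each stretch is 300 bases of mm9, plus strand. The first pair lies in the long 5′ intron of Spi1, at chr2:90923073-90923372 and chr2:90927887-90928186, and is the centre of a peak each. The centre of the first peak held 3 matches, all TGTGGT on the plus strand, and that of the second held none.
Spi1 intronic peak, 5′: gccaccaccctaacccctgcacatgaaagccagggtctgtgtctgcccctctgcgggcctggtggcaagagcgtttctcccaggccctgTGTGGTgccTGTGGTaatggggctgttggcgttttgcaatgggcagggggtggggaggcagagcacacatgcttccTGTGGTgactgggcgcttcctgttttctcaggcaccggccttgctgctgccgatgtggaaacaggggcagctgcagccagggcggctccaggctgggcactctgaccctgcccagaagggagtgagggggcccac
Spi1 intronic peak, 3′: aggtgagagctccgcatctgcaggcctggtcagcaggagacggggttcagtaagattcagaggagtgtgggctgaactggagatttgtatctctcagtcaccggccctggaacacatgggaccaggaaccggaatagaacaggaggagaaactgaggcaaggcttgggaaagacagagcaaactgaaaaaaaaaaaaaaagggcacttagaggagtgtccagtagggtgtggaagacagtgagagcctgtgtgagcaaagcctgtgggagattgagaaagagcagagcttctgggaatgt
The peak centre upstream of Cebpb, at chr2:167505637-167505936, and that downstream of Mpo, at chr11:87621775-87622074, held 1 TGTGGT each.
Cebpb upstream peak: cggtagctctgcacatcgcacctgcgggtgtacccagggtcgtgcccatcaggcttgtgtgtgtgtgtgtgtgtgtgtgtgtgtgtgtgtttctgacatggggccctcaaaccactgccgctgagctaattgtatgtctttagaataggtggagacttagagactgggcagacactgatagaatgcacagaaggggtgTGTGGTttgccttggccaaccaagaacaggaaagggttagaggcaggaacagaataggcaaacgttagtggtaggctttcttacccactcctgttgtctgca
Mpo downstream peak: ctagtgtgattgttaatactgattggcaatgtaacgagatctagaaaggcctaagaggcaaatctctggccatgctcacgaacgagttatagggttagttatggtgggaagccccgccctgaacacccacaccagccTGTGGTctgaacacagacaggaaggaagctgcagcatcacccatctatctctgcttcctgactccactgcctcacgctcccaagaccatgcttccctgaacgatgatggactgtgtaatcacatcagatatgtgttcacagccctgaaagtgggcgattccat
The peak in the window of Elane had no match in its centre. Its stretch with the most matches, 5 of the 11 in the whole peak, lay at chr10:79359649-79359948.
Elane window peak: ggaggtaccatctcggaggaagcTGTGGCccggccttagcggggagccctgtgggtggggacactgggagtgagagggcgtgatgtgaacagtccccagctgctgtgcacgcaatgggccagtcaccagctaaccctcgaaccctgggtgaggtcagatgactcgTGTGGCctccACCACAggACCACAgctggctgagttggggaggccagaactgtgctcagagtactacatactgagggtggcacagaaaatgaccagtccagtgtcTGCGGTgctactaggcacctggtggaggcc

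Promoters of 6 members were held in a RefSeq table (GRCm38.p6, 250 bases before to 50 bases after a start), namely Csf3r, Cebpa, Cebpb, Lyz2, Mpo and Elane, and Csf1r, Spi1, Cd14 and Emr1 were not in it. RUNX matches were in 2 of the 6, Elane and Lyz2, compared with 45.2% of the 32851 promoters of that table. These are shown, on the strand of the gene, because they hold a RUNX consensus while no Runx3 peak lay at either start.
Elane promoter: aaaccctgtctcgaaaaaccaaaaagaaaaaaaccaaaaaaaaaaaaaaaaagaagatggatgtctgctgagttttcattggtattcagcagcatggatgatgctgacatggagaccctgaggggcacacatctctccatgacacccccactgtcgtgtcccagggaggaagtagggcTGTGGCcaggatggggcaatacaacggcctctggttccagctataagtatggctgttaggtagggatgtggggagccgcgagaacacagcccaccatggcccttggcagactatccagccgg
Lyz2 promoter: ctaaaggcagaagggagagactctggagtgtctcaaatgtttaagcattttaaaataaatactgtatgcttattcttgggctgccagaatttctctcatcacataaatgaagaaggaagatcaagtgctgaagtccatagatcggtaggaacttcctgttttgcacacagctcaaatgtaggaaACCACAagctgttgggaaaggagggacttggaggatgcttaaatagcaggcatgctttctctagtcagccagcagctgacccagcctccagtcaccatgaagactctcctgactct
An ETS consensus (AGGAAGT or CGGAAGT) was in 3 of the 6 promoters and in 15.1% of all promoters, and the PU.1 box GAGGAA was in 3 of the 6 and in 28.3% of all. GAGGAA overlaps AGGAAGT where both occur together. The C/EBP pattern TTGCNNAA, searched on both strands, was in 0 of the 6 and in 10.8% of all. A match describes letters and is not evidence of a bound site.

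Runx3 peaks were not rare around these myeloid genes. Of the 10 windows, 6 held a Runx3 peak (Csf1r, Spi1, Cebpb, Mpo, Elane and Cd14), beside 51.0% of all protein-coding genes treated in the same way. H3K4me1 regions were in 8 of 10 windows, beside 74.0% of all genes. Lyz2 and Emr1 had neither, as did 25.7% of all genes. Csf3r and Cebpa had H3K4me1 without Runx3. The 10 windows together held 9 Runx3 peaks and 30 H3K4me1 regions. The median was 1.0 peak and 3.0 regions per window, the same as the medians over all genes. These shares lie near the background, and with 10 genes they do not set the members apart from it.

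**Figure D1:**
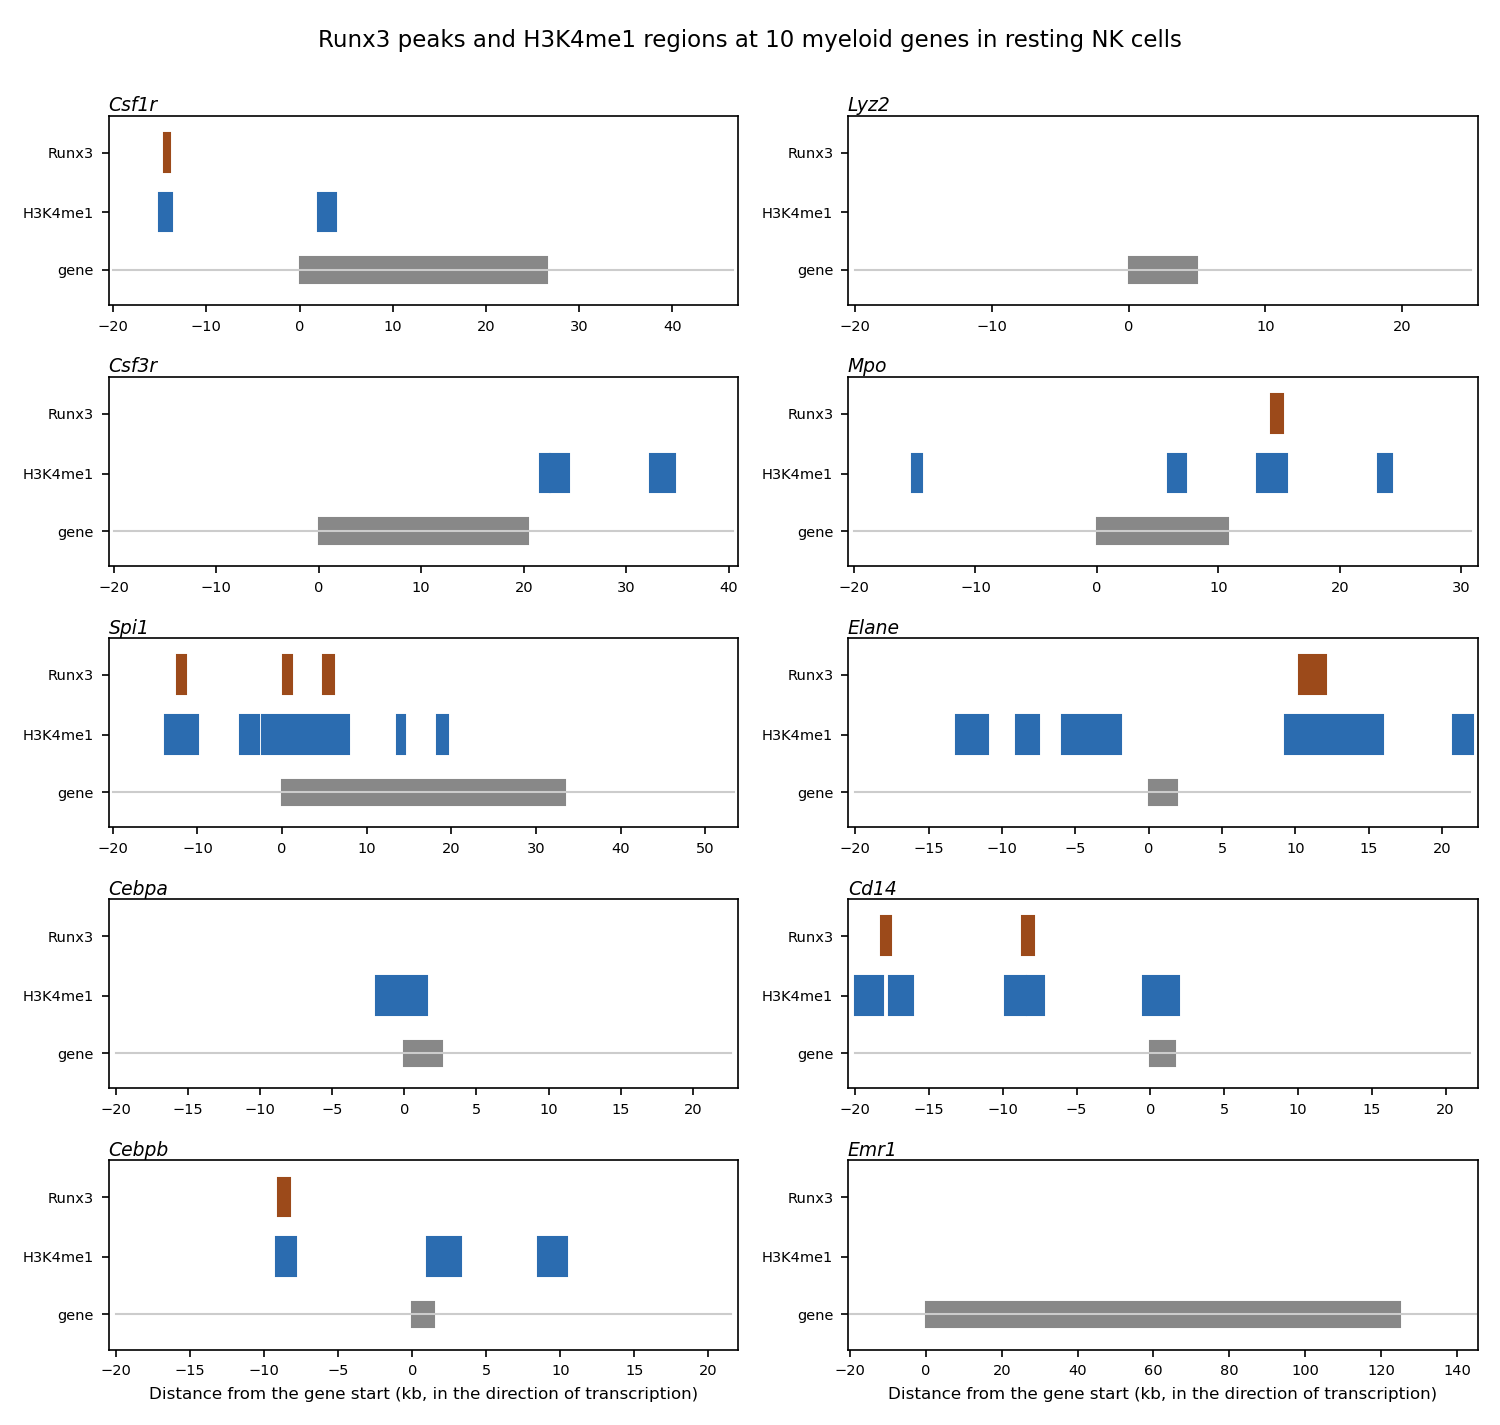
Runx3 peaks (brown) and H3K4me1 regions (blue) around the 10 genes (grey bars), with position in kb from the gene start in the direction of transcription, each panel on its own scale. Runx3 peaks are drawn in 6 panels and cross the gene bar only at Spi1, while the panels of Lyz2 and Emr1 are empty; neighbouring regions can merge by eye, as at Csf3r, where 3 regions were listed.

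Of the 9 Runx3 peaks in the windows, 2 had their midpoint in a member gene body, both at Spi1. The median window was 47900 bp wide for the members and 55400 bp over all genes. With equal flanks, the member gene bodies were thus shorter in the median and held less sequence for a peak to fall in. Runx3 peaks entered the body of 1 member, Spi1, and there only as its body was drawn from the 5′ starts, compared with 33.6% of all genes. Peaks whose nearest annotated transcription start site (TSS) was the member's own were found at 4 members (Csf1r, Spi1, Cebpb and Mpo), beside 32.3% of all genes. A peak midpoint under 1 kb from an own TSS was found at 1 member, Spi1, beside 27.2% of all genes. For H3K4me1, a region nearest to an own TSS was found at 6 members (Csf1r, Spi1, Cebpa, Cebpb, Mpo and Cd14; 62.9% of all genes). An H3K4me1 region covered an own TSS at 3 members (Spi1, Cebpa and Cd14; 43.6% of all genes). Of the 9 peaks in the windows, 5 (55.6%) were nearest to a member's own TSS and the other 4 belonged by distance to neighbouring genes.

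All 9 Runx3 peaks of these windows overlapped an H3K4me1 region (lower bound of the 95% Wilson interval 70.1%, which covers counting error only), as did 95.7% of all 15524 peaks. Of the 30 H3K4me1 regions, 12 (40.0%) shared at least 1 bp with a Runx3 peak, beside 28.6% of all 49902 regions. Peaks at Slc39a13, Tmco6 and Ik each met a pair of regions. The Elane window region chr10:79369783-79371183 met only a peak outside that window, sharing 185 bp with it. The 9 peaks were 641 to 1847 bp wide, with a median of 961 bp, and the median of all peaks was 825 bp. The 30 regions were 762 to 10298 bp wide, with a median of 1736.5 bp against 1801 bp over the list.

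Among the growth factor receptors, Csf1r and Csf3r differed. Csf1r, the receptor through which Csf1 and Il34 support macrophages, lies at chr18:61265226-61291803. One Runx3 peak of 641 bp, chr18:61250668-61251308, lay in intergenic sequence 14.2 kb upstream, and the TSS nearest to it was that of Csf1r. This peak lay wholly within an H3K4me1 region of 1450 bp and had 3 RUNX matches in its centre. A further H3K4me1 region of 1854 bp, chr18:61267245-61269098, lay in an intron of Csf1r 2.94 kb downstream of the gene start and held no Runx3 peak. It held 6 RUNX matches, or 3.24 per kb, beside a median of 1.83 over all H3K4me1 regions without a Runx3 peak. Csf1r is known to have an intronic enhancer, called FIRE, that PU.1 and Runx1 bind in macrophages. Whether the intronic region is that element was not tested. No other protein-coding gene starts in the window of Csf1r, and neither region covered a Csf1r TSS.

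Csf3r, the receptor for the granulocyte growth factor Csf3, lies at chr4:125701794-125722219. No Runx3 peak lay in its window, and the nearest was 51.3 kb away, 19 bp from the TSS of Lsm10. The window held 3 H3K4me1 regions, all beyond the 3′ end of the gene, the closest at 1.13 kb. A pair of them lay 333 bp and 807 bp from the TSS of Mrps15 and the third lay 471 bp from the TSS of Oscp1. None was nearest to a Csf3r TSS, so the marked chromatin here was at neighbouring promoters.

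The transcription factor genes held 4 of the 9 Runx3 peaks, and 3 of these were at Spi1. Spi1, at chr2:90922547-90955913, had 3 Runx3 peaks, and 14.1% of all genes had as many or more. The first, chr2:90910167-90911152, had its midpoint at -11.9 kb from the gene start but 85 bp from the TSS of Slc39a13, a zinc transporter gene. Its centre was 69.0% G and C with 33 CpG dinucleotides, beside a median of 52.3% G and C over all peak centres (interquartile range 47.0 to 59.3%). The second, chr2:90922705-90923740, lay in an intron with its midpoint 0.675 kb downstream of the gene start. The third, chr2:90927353-90928720, lay 5.49 kb downstream of the gene start in an intron. Both intronic peaks fell within 1 H3K4me1 region of 10298 bp, chr2:90920129-90930426, and only 1.85% of all H3K4me1 regions were as wide or wider.

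The position of these peaks relative to Spi1 depended on which annotated TSS was used. The annotation gives Spi1 4 starts, of which a pair (90922547 and 90922565) lies at the 5′ end and the others lie at 90936253 and 90936937. Measured from the most downstream start, the second peak was at -13.7 kb and the third at -8.9 kb. An H3K4me1 region of 996 bp, chr2:90936115-90937110, covered the downstream starts and held no Runx3 peak. Spi1 is known to have an upstream regulatory element that Runx1 binds and that keeps PU.1 at its level in stem cells, myeloid cells and B cells. Whether the second peak, whose centre held 3 RUNX matches and 1 TTGCNNAA match, is that element was not tested. Both peaks counted as in the gene body, and a peak midpoint as near an own TSS, only through the 5′ starts. No Runx3 peak covered a Spi1 TSS. The 6 H3K4me1 regions of the window covered 25.3% of it, and 13.9% of all genes had that share or more.

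Cebpa, which encodes the C/EBP factor required for granulocyte commitment, lies at chr7:35904312-35906945. Its window held 1 H3K4me1 region of 3584 bp, chr7:35902315-35905898, which covered the TSS, and no Runx3 peak. The nearest Runx3 peak was 62.2 kb away, 229 bp from the TSS of Cebpg, a C/EBP gene expressed in many cell types. No other protein-coding gene starts in the window of Cebpa. The whole marked region held 6 RUNX matches, and the 300-base promoter of the RefSeq table held none.

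Cebpb, a C/EBP gene induced by inflammatory signals in many cell types, lies at chr2:167514415-167515918. One Runx3 peak of 818 bp, chr2:167505378-167506195, lay 8.63 kb upstream of its TSS, inside an intron of Tmem189, and the nearest TSS was that of Cebpb. This peak lay wholly in an H3K4me1 region of 1353 bp. The other H3K4me1 regions were downstream, at 2.15 kb and 9.46 kb from the TSS, and held no Runx3 peak. The closer of them reached into the 3′ end of the Cebpb gene body but its midpoint was 109 bp from the start of A530013C23Rik.

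The granule protein genes had Runx3 peaks only outside their gene bodies. Mpo, which encodes the myeloperoxidase of neutrophil granules, lies at chr11:87607083-87617915. Its 1 peak of 961 bp, chr11:87621444-87622404, began 3.53 kb beyond the 3′ end of Mpo, within an intron of Lpo, the neighbouring lactoperoxidase gene. The nearest start was nevertheless an Mpo one, at 5.3 kb, and it belongs to a retained-intron transcript near the 3′ end of the gene. From the first Mpo start the peak was at 14.8 kb. Its RUNX match lay 10 bp from the peak midpoint, the closest of the 6 centres that held one. Of the 4 H3K4me1 regions in the window, 1 contained this peak, 1 lay in an Mpo intron and the others lay at the TSSs of Bzrap1 and Lpo.

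Elane, which encodes neutrophil elastase, lies at chr10:79349057-79350961 in a gene-dense stretch with 4 other protein-coding starts in its window. H3K4me1 covered 37.0% of the window, the highest share of the 10 members, and 5.62% of all genes had that share or more. None of the 6 H3K4me1 regions was nearest to the TSS of Elane. By nearest TSS they belonged to BC005764, to Prtn3, another neutrophil protease gene, and to Med16, a Mediator subunit gene. The region closest to Elane, chr10:79345806-79347172, lay upstream, 1.89 kb from the gene body, with its midpoint in intergenic sequence. That midpoint was at -2.57 kb from the Elane TSS and 1.96 kb from the nearest Prtn3 one. The 1 Runx3 peak, chr10:79359305-79361151, was 1847 bp wide, and 0.908% of all peaks were as wide or wider. It lay in an intron of Med16, 2.2 kb from the Med16 TSS and 11.2 kb downstream of the Elane TSS.

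Lyz2, which encodes the lysozyme of macrophages and neutrophils, lies on the minus strand at chr10:116714390-116719377 and its window was empty. The nearest Runx3 peak was 94.4 kb away, 217 bp from the TSS of Cpsf6, and the nearest H3K4me1 region was 51.7 kb away. No other member was as far from either list. Over all genes the median distance from the gene body to a Runx3 peak was 18.3 kb, and 28.4% of genes were as far from one as Lyz2 or farther.

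The surface protein genes also contrasted. Cd14, the monocyte co-receptor for lipopolysaccharide, lies on the minus strand at chr18:36884728-36886390. An H3K4me1 region of 2437 bp, chr18:36884452-36886888, covered the whole gene and held no Runx3 peak. Both Runx3 peaks of the window lay at the promoters of neighbouring genes. The peak chr18:36894252-36895118 was 37 bp from the TSS of Tmco6, and the peak chr18:36903954-36904642 was 12 bp from the TSS of Ik. Each peak bridged a pair of H3K4me1 regions, and the midpoint of the peak at Ik lay in the gap between them. Their centres had 20 and 24 CpG dinucleotides, and the peak centre at Tmco6 had no RUNX match.

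Emr1, named Adgre1 in newer annotations, encodes the macrophage marker F4/80 and lies at chr17:57498109-57622952. Its window of 165.0 kb was the widest of the 10 and held neither a Runx3 peak nor an H3K4me1 region. Of the 1801 genes with windows at least as wide, 21.0% had neither. The nearest Runx3 peak, chr17:57474822-57475717, lay 22.4 kb from the gene body in intergenic sequence, overlapped an H3K4me1 region, and had Emr1 as its nearest TSS. It was 2391 bp outside the 20 kb limit. A peak near Med16 missed the window of Elane by 37 bp and one near Madd missed that of Spi1 by 687 bp, whereas the outermost peak inside a window, that at Ik, was 17.6 kb from Cd14.

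**Figure D2:**
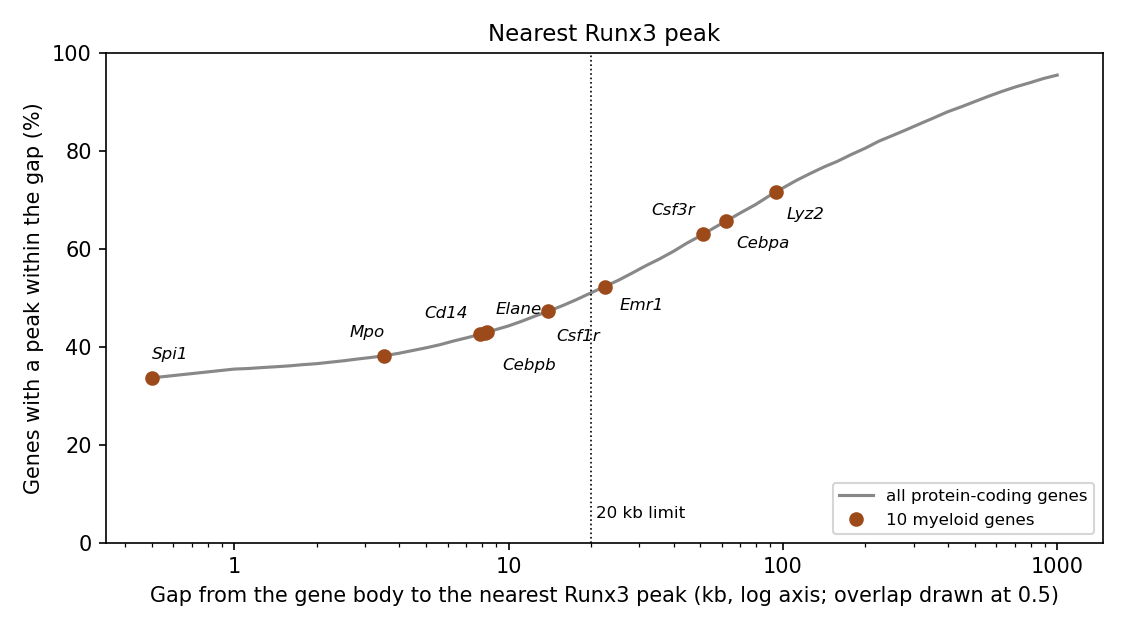
Share of all 22350 protein-coding genes with a Runx3 peak within a given gap of the gene body (grey line, percent), against the gap in kb on a log axis, with the 10 genes placed on the line at their own gaps (brown points). Spi1 overlaps peaks, 5 genes lie between 3.53 and 13.9 kb, and Emr1, Csf3r, Cebpa and Lyz2 lie beyond the 20 kb limit at 22.4 to 94.4 kb.

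The share of sequence to which short reads can be assigned varied between the windows, and only uniquely aligned reads had been kept by the authors. The share of 40-base words that occur once in the 20 chromosomes, on either strand, was 81.7% in the window of Lyz2 and 68.6% in that of Emr1, the windows without any region. In the other 8 windows it was 92.2 to 98.0%. Within the gene bodies it was 72.6% for Lyz2, whose paralog Lyz1 lies next to it, and 67.0% for Emr1. Among 40 other myeloid genes, described further on, it was 83.0 to 96.8% (median 96.6%) in the 7 windows without any region and 69.5 to 99.4% (median 92.7%) in the 33 with one. The part of read uniqueness in the empty windows was not tested.

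Gene density also moved with the counts. Of all genes with no other protein-coding TSS in the window, 31.3% had a Runx3 peak, compared with 51.6% of genes with 1, 66.9% of genes with 2 to 3 and 82.3% of genes with 4 to 6. The share was 62.9% in the 140 genes with 7 or more. The share with a peak nearest to an own TSS varied less up to 6 other starts, at 27.6, 34.4, 35.0 and 37.2%, and was 17.1% with 7 or more. Members with a Runx3 peak were 1 of 3 with no other start (Csf1r, Cebpa and Emr1), 1 of 2 with 1 other start (Cebpb and Lyz2), 3 of 4 with 2 to 3 (Csf3r, Spi1, Mpo and Cd14), and Elane with 4. These groups are too small to show a trend. The part of gene density in the members' counts was not tested.

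The width of the window decided how many members counted as bound. With the gene body alone, 1 of 10 members had a Runx3 peak (33.6% of all genes), with 5 kb 2 (39.8%), with 10 kb 5 (44.3%), with 20 kb 6 and with 50 kb 7 (62.6%). The members thus lay below the share over all genes at the gene body and 5 kb, and near it from 10 kb outward. With 10 genes, whose bodies were shorter in the median, these differences do not set the members apart from all genes. For H3K4me1 the counts were 6 (63.3%), 8 (67.7%), 8 (70.4%), 8 and 9 (79.7%) in the same order. Csf3r, Cebpa and Lyz2 remained without a Runx3 peak at 50 kb, and Lyz2 without H3K4me1.

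**Figure D3:**
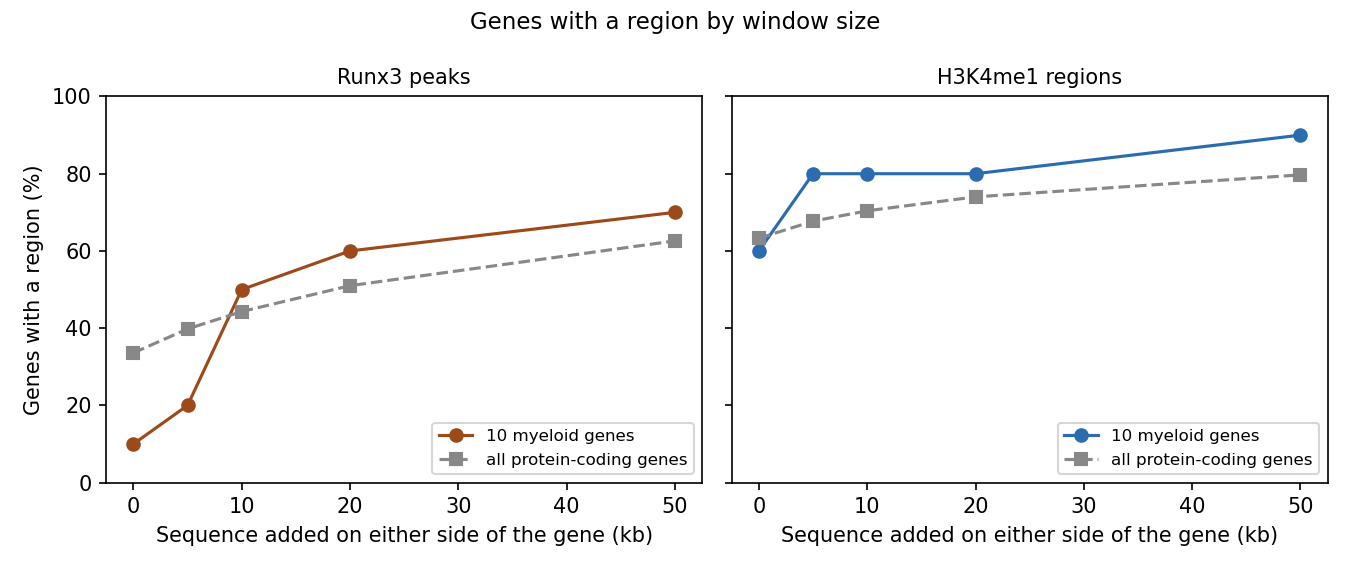
Percent of genes with a Runx3 peak (left) or an H3K4me1 region (right) against the sequence added on either side of the gene body in kb, for the 10 myeloid genes (solid) and all 22350 protein-coding genes (dashed). For Runx3, 1 of 10 members compares with 33.6% of all genes at the gene body, and 6 of 10 with 51.0% at 20 kb.

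RUNX matches also occurred in marked chromatin of the members that held no Runx3 peak. In the central 300 bp, 6 of the 9 member peaks held a RUNX match, beside 79.4% of all peaks, and in the whole peak 9 of 9 did, beside 93.3%. Of the member H3K4me1 regions, the 12 with a Runx3 peak had a median of 2.15 RUNX matches per kb and the 18 without had 2.46. Over the whole list these medians were 1.99 and 1.83. An ETS match was in the centre of 1 member peak (25.9% of all peaks), a GAGGAA box in 1 (30.4%) and a TTGCNNAA match in 1 (10.1%).

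Other myeloid genes, fixed as a list of 42 by their known roles, were read in the same way. In the annotation, 40 were given as protein-coding, and 2 (Cebpd and Gfi1) were not and were left out. A Runx3 peak was in 21 windows (52.5%) and an H3K4me1 region in 33 (82.5%), again near the 51.0% and 74.0% of all genes. A peak midpoint lay under 1 kb from an own TSS at 4 of the 40 (Cebpg, Itgam, Cd68 and Ly96), beside 27.2% of all genes. By role, a Runx3 peak was near 3 of 7 ligands and receptors, 4 of 5 transcription factors, 6 of 12 granule protein genes and 8 of 16 surface protein genes. A peak nearest to an own TSS was found at 2 of 7, 4 of 5, 1 of 12 (Mmp9, a secreted matrix protease) and 7 of 16 in the same order, beside 32.3% of all genes.

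The most Runx3 peaks in that list were at Itgam with 8, which encodes CD11b, Itgax with 5, which encodes CD11c, and Fcgr1 with 5, an IgG receptor gene. Itgam and Itgax are also expressed by NKC and share part of their windows, and none of the peaks near Fcgr1 was nearest to its own TSS. Neither list had a region near 7 of the 40 genes, beside 25.7% of all genes, so empty windows were not more frequent here. The 7 were Csf2rb, Lyz1, S100a8, S100a9, Marco, Msr1 and Cd33, which include the calprotectin genes of neutrophils and scavenger receptor genes of macrophages. Windows of Prtn3 and Lyz1 met those of Elane and Lyz2, so the lists are not fully separate.

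Genes of lymphocytes were set beside the myeloid values. The study had reported Runx3 binding at Ncr1 and Klr genes in NKC, and at Cd4 and Cd8 only in CD8 T cells. The NKC and T cell counts were therefore partly known before the lists were chosen. The 10 NKC genes had a Runx3 peak in 10 windows and 8 had one with its midpoint under 1 kb from an own TSS, with a median of 5.0 peaks per window and 69.3% of the window under H3K4me1. For the 10 myeloid identity genes the same values were 6, 1, 1.0 and 10.1%. The 10 B cell genes had 7, 0, 1.0 and 7.14%, and the 10 T cell genes had 7, 1, 1.5 and 19.3%. Over all genes, 51.0% had a Runx3 peak and 27.2% had a peak midpoint under 1 kb from an own TSS. The medians over all genes were 1.0 peak and 7.38% of the window under H3K4me1. Klrb1c (12), Klrd1 (9) and Tbx21 (8) had the most peaks among NKC genes, Cd79a (3) and Pax5 (2) among B cell genes, and Cd28 (5) among T cell genes. Windows of neighbouring genes overlap, so the 59 peak counts of the NKC list came from 56 peaks and the 15 of the T cell list from 11.

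**Figure D4:**
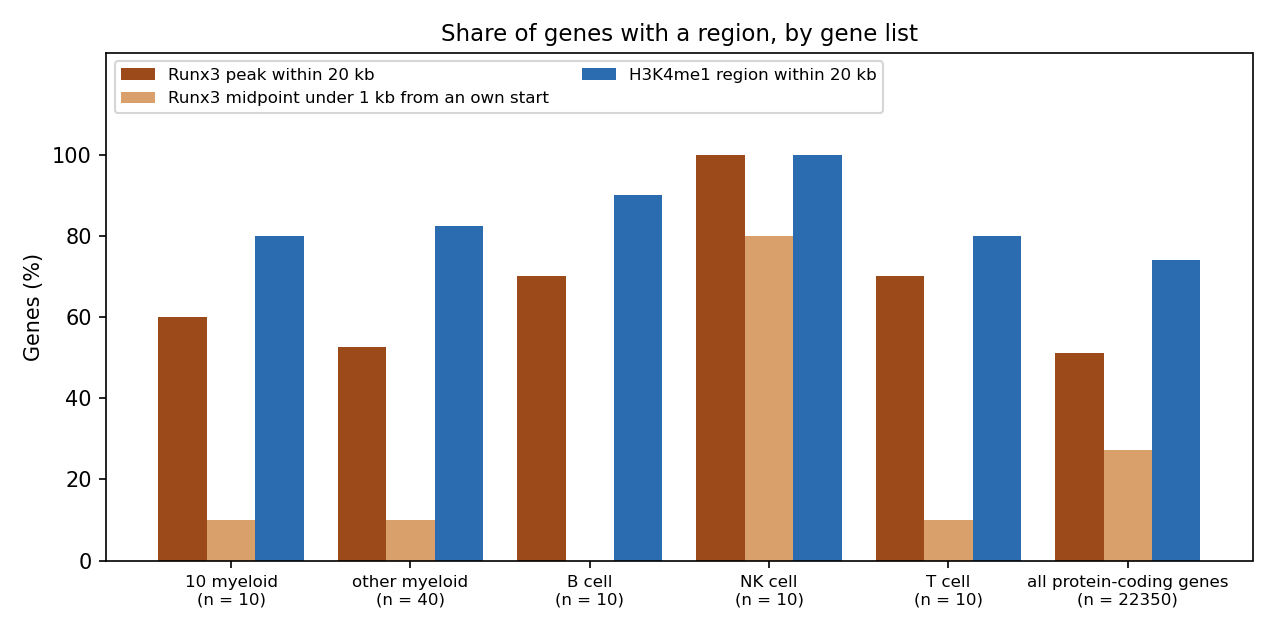
Percent of genes with a Runx3 peak within 20 kb (dark brown), with a Runx3 peak midpoint under 1 kb from an own TSS (light brown) and with an H3K4me1 region within 20 kb (blue), for each gene list and all protein-coding genes. The 10 myeloid genes stand at 6, 1 and 8 of 10, and the 10 NKC genes at 10, 8 and 10.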

How the data were processed

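ChIP-seq of resting splenic NKC was deposited as 2 coordinate lists, with no values beside the positions. Per the study's methods, the authors aligned short reads (40 bp per the labels) to mm9 with ELAND, kept unique alignments, joined biological repeats, scaled the larger set to the smaller and called regions with MACS against NIS. The submitters' processing notes name CASAVA 1.7. The labels describe 1 sample per antibody, so which reads entered each list was not settled. The study's methods state the aligned reads of each library, a value not in the lists and not repeated here, and the depth at each region could not be read from coordinates. NIS had no list of its own and entered only as the control of the authors.

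Gene bodies and TSSs came from GENCODE vM1 (mm9), and Spi1 was matched through RefSeq synonyms. Windows added 20 kb, with a minimum overlap of 1 bp, and were computed in Python 3.11.15 (numpy 2.4.6, scipy 1.17.1), after the overlap code was tested on simulated regions. Motifs were searched on both strands of the central 300 bp of a peak. Uniqueness was the share of 40-base words occurring once in the genome, computed after the empty windows were seen. Since each antibody had 1 list, counts were set beside all protein-coding genes without any test. All 10 members are named, and from the other lists up to 3 genes with the most Runx3 peaks and up to 10 myeloid genes without a region; Mmp9, Cd68, Ly96 and Cebpg were named after their values were seen. The members and lists were chosen with earlier results of these data known. Other windows, overlap rules, widths, transcript sets and motif windows were tried as alternatives.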

Additional observations from a re-analysis of the deposited data

How the results depend on the processing

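Of 41 alternatives over 7 values, 29 left a count within 1.5 times the reported one, or a share within its 95% Wilson interval, and 12 moved it further. Within that tolerance, 6 members with a Runx3 peak could become 4, 9 peaks 6 and 30 regions 21. With the gene body alone, 1 member and 2 Runx3 peaks remained of 6 and 9, and with 5 kb 2 members and 3 peaks did. The H3K4me1 regions went from 30 to 8 and 14 in the same windows. At 50 kb there were 31 Runx3 peaks and 70 H3K4me1 regions. Counting only regions whose nearest TSS was the member's own left 5 peaks and 10 regions, and only H3K4me1 regions wider than the median left 15. Requiring the peak to cover the TSS left 0 members with Runx3 at an own start, beside 24.2% of all genes. Wider windows hold more sequence by construction.

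No paired analysis was possible because each antibody had 1 list and no test was run. Leaving out a replicate was likewise not possible. Without scores, a stricter threshold of the peak caller could not be applied, and an absent region says only that none was called at the depth of these libraries.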

Other observations

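Beyond the 20 kb limit, the neighbourhood of Mpo held a cluster of Runx3 peaks. Within 50 kb of the gene body there were 9 peaks, of which 7 had midpoints from -34.8 to -48.4 kb of the gene start, around Supt4h1, A430104N18Rik, Mir142, which encodes a microRNA abundant in blood cells, and Bzrap1. The peak with its midpoint 49 bp from the start of Mir142 overlapped no H3K4me1 region. Cebpa went from 1 to 3 H3K4me1 regions at 50 kb, none with a Runx3 peak. One of the added regions, chr7:35865625-35866591, of 967 bp, had its midpoint at -38.2 kb from the Cebpa start, and the other, chr7:35940616-35942489, of 1874 bp, lay 37.2 kb downstream. Cebpa is known to have a downstream enhancer that Runx1 binds in myeloid progenitors, and whether the downstream region is that element was not tested.

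The myeloid genes with the highest share of their window under H3K4me1 were Irf8 at 80.7%, Ccr2 at 60.9%, Itgax at 53.9% and Cx3cr1 at 52.1%, named after their values were seen. The median over all genes was 7.38%. Regions nearest to an own TSS were 5 of 7 at Irf8 and 7 of 11 at Cx3cr1, but 1 of 5 at Ccr2 and 1 of 6 at Itgax. Irf8 and Ccr2 had 4 Runx3 peaks each. These genes are also known to be expressed in NKC, which was not measured here.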
